A study of Ipomoea batatas with 28 samples.

Results

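A set of 200 IDs from a gene-level table was followed through the thickening of sweet potato (Ipomoea batatas) roots. Their level dropped late in the growth of storage roots, between roots of 15 mm and roots of 25 mm. The IDs were taken from 99697 in all, of which 75757 had at least 1 TPM in at least 4 libraries. TPM is an ID's share of its library, corrected for length. The stage means of log2(TPM + 1) were chained into 5 steps, from the mean of both fibrous stages to S10, S12, S14, S16 and S20. An ID was eligible when its S16 to S20 step was negative and made up at least 50% of the sum of all step sizes. There were 1397 eligible IDs, and the 200 with the most negative last step were kept. The members were thus chosen by their stage means in all libraries, and their falls at S20 describe the choice and carry no test.

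All plants were wild type, and RNA came from the middle of the root. Fibrous roots were sampled at S4 (1.5 mm) and S8 (2 mm), pencil roots at S10 (3.5 mm) and S12 (5 mm), and storage roots at S14 (10 mm), S16 (15 mm) and S20 (25 mm), with 4 biological replicates each and 28 libraries in all. The sources used here give neither cultivar nor plant age. Of the IDs, 0 matched the gene table at hand, so the files do not pair them with gene names. Tissue markers could not be checked for the same reason, and 3 IDs are named below, with the others described by rank and count.

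Storage roots of sweet potato form when a thin root thickens through the activity of cambium, a layer of dividing cells that adds xylem and storage parenchyma. The parenchyma fills with starch and storage proteins, while roots that stay fibrous lignify their central cylinder.

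The median level of the 200 IDs was similar through the fibrous and pencil stages, lower at S14 and S16, and lowest at S20. Their median level in TPM, taken over the stage mean of each ID, was 32.5 in S4, 30.9 in S8, 33.8 in S10, 32.0 in S12, 24.1 in S14, 24.6 in S16 and 4.17 in S20 roots. The median member kept 18.2% of its S16 TPM at S20. Together the 200 IDs held 2.57% ± 0.182 of all TPM in S4, 2.30% ± 0.480 in S8, 2.30% ± 0.415 in S10, 1.89% ± 0.416 in S12, 1.18% ± 0.155 in S14, 1.17% ± 0.237 in S16 and 0.224% ± 0.103 in S20 roots (SD, n = 4 each). The summed share was thus already lower at S14, and the late fall came on top of this. The sum is weighted by abundant IDs: a run of 5 members, described below, held 33.2% of the members' TPM in S12 and 15.2% in S14. In bulk RNA, fewer cells of a type and less RNA per cell cannot be told apart.

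**Figure D1:**
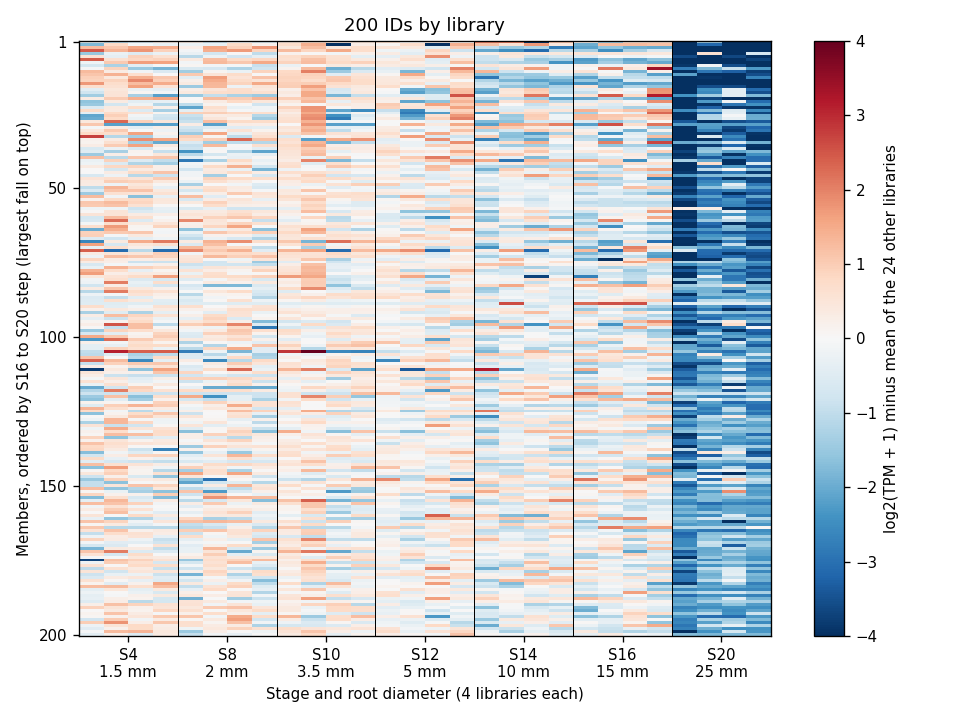
Heatmap of log2(TPM + 1) of the 200 IDs (rows, largest S16 to S20 fall on top) in the 28 libraries (columns, by stage and root diameter), each row set relative to its mean over the 24 libraries of the other stages. The S20 block is blue for nearly all IDs, and its first column, replicate 1, is the darkest.

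The last step had a median of -2.16 on the log2(TPM + 1) scale, a scale that understates the change of low IDs, and ran from -4.90 to -1.69. There were 27 members with a fall of 3 or more, 103 with a fall between 2 and 3, and 70 below 2. At the end of the list, the last 3 members had steps of -1.69, -1.69 and -1.69, and the next 3 eligible IDs had -1.68, -1.68 and -1.67, so the list ends within a continuous range. With a pseudocount of 0.1 in place of 1, the rule chose 80 of the 200 again, and with a step share of 60% it chose 63. Over all IDs tested, the median of the same step was -0.03. A limma fit over all 28 libraries called 171 of the 200 members lower at S20 than at S16 (Benjamini-Hochberg adjusted p under 0.05 and a log2 fold of at least 1), where it called 2.76% of all IDs tested. The rule used this contrast, so nothing is read from that count. A fit to S16 and S20 alone called 104 members, and the share of all IDs it called was not computed.

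The description of the set as falling only in the thickest roots held for part of it. At S16, 115 members were within 1 log2 unit of their fibrous level, 60 were already lower by 1 unit or more, and 25 were higher by 1 unit or more. The median steps before the last were 0.10 into S10, -0.12 into S12, -0.20 into S14 and 0.00 into S16, and the S12 to S14 step was negative in 131 members. The highest stage was S4 or S8 for 90 members, S10 or S12 for 53 and S14 or S16 for 57. S20 was the lowest stage for 195 members, and 198 were lower at S20 than in fibrous roots. The last step made up a median of 56.2% of a member's total step size, and at most 80.5%.

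The individual libraries showed the fall in most members, but not in all. In 138 members every S20 library lay below every S16 library, and in the other 62 the libraries overlapped. Among all IDs tested, 7.63% had all S20 libraries below all S16 libraries. In 99 members the S20 libraries lay below all 24 libraries of the earlier stages, a pattern found in 2.34% of all IDs tested. As the rule chose on these means, both counts describe the list. Each S20 library listed 16 to 36 members at 0, against 1 to 2 in each S16 library. At S20, 51 members were listed at 0 in at least 1 library and 4 in all of them. The rule favours low values at S20, and the share of such zeros over all IDs tested is not given. Sequencing depth is unknown for TPM, and a value listed at 0 need not mean absence.

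The rule was also run with 1 library left out at a time, and the members chosen that way were read in the library that took no part in the choice. Of 200 IDs chosen without an S20 library, 156, 157, 123 and 174 lay below the lowest S16 value in the left-out replicate 1, 2, 3 and 5. Over all IDs tested, between 20.05% and 29.3% did so. Of 200 IDs chosen without an S16 library, between 155 and 162 lay above the highest S20 value in the left-out library, against 25.1% to 30.4% of all IDs tested. The fall was thus seen by most IDs in libraries outside the choice, and least often in S20 replicate 3. The libraries of the opposite stage did take part in the choice, which favours such counts.

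S20 libraries differed from each other in how low the members were. The median log2(TPM + 1) over the members was 1.305, 2.34, 2.42 and 1.95 in S20 replicates 1, 2, 3 and 5, against 4.32, 4.46, 4.59 and 4.44 in S16 replicates 1, 2, 3 and 4. No S20 library reached any S16 library, and replicate 1 stood lowest. Of the S20 libraries, replicate 1 held the lowest value of 143 members, and replicate 3 the highest value of 100. Summed over the members, TPM was 1019, 2782, 3345 and 1800 in these S20 libraries, against 9808, 11411, 10377 and 15075 in the S16 libraries. The TPM of the most abundant single ID of the library ran in the opposite order, with 28099 in replicate 1, 12022 in replicate 2, 7856 in replicate 3 and 18523 in replicate 5. The 1000 most abundant IDs took 40.1%, 38.2%, 30.3% and 36.7% of the TPM in these libraries, against 31.3% to 34.3% at S16. The median of all IDs tested was 2.16, 2.10, 2.25 and 2.21 in the S20 libraries and showed no such order. The part of these differences in the level of the members was not tested.

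**Figure D2:**
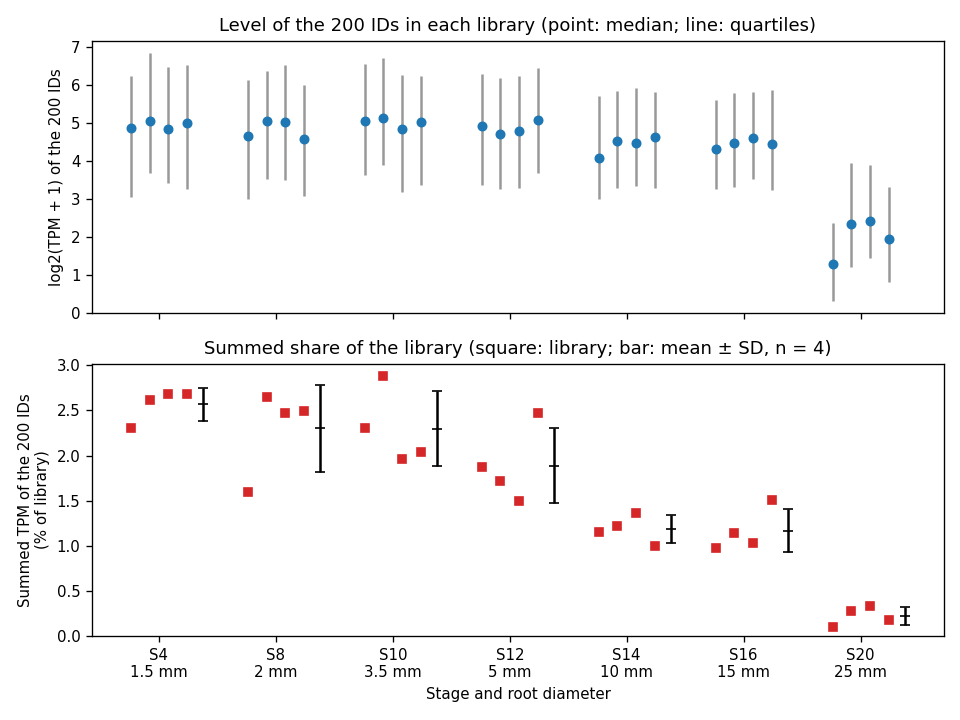
Upper panel, median (point) and quartiles (line) of log2(TPM + 1) over the 200 IDs in each library. Lower panel, their summed TPM as a percentage of the library (squares), with mean ± SD (n = 4) beside each stage; the S20 libraries lie between 0.102% and 0.335%, below the S16 libraries at 0.981% to 1.51%.

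Replicate spread was larger among members than among IDs in general. The median SD of log2(TPM + 1) within a stage was 0.79 at S20 and 0.65 at S16 for members, and 0.36 and 0.38 for all IDs tested. At the other 5 stages it lay between 0.48 and 0.59 for members and between 0.33 and 0.47 for all. Members were also more abundant, with a median of 28.5 TPM over all libraries, against 3.29 TPM for all IDs tested. On this scale the SD of IDs near 0 TPM is held small, and a rule on large steps favours abundant and variable IDs. The spreads were not compared at like level, so their difference is a description of the list.

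The difference between both fibrous stages, of which the rule used only the mean, gave no call among the members. The limma fit called 0 of the 200 between S8 and S4, where it called 0.00132% of all IDs tested. At an unadjusted p under 0.05 there were 11 members, 8 lower and 3 higher at S8, while 4.0% of all IDs tested reached that level. The median log2 fold of S8 against S4 was -0.12 over the members and 0.03 over all IDs tested. The smallest adjusted p of a member was 0.525 (limma).

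A run of 5 members, from 4 of the G numbers between 2049 and 2121, made up a smaller part of the members' TPM from S10 on. The run held 43.8% of the members' TPM in S4, 42.1% in S8, 37.0% in S10, 33.2% in S12, 15.2% in S14, 10.1% in S16 and 6.15% in S20 roots. This run was picked out after its values were seen, and no source used here says whether the numbering follows position in the genome. The most abundant member of the run had 7701, 3796, 5526 and 6570 TPM in the S4 libraries, 451, 637, 509 and 558 TPM in the S16 libraries, and 10.8, 116, 91.9 and 70.5 TPM in the S20 libraries. Its stage means were 5898 ± 1659 TPM in S4, 4941 ± 1623 in S8, 4264 ± 368 in S10, 3153 ± 928 in S12, 911 ± 359 in S14, 539 ± 78.8 in S16 and 72.2 ± 45.0 in S20 roots (SD, n = 4 each).

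All 5 members of this run were lower at S14 than at S12, and lower again at S20 than at S16. Their S12 to S14 steps ran from -1.94 to -1.34 and their S16 to S20 steps from -4.70 to -3.25 on the log2(TPM + 1) scale. All 5 had their S20 libraries below all 24 others, as had 99 of the 200 members and 2.34% of all IDs tested. The rule chose on these means, so this count describes the list. The 5 members had ranks 3, 7, 8, 15 and 20 by the size of the last step. Of the 5 rows, those of 1 pair share a G number, and reads of near-identical copies, common in a hexaploid plant, could be divided among these rows. Within stages the 5 varied together to different degrees, with pairwise correlations of the deviations from the stage means between 0.24 and 0.94 over the 28 libraries.

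The member with the highest S16 level, G16750_TU27369, belonged to a group that fluctuated widely between roots of the same stage. It had 13.8, 136, 596 and 76.6 TPM in S20 replicates 1, 2, 3 and 5, against 486, 887, 664 and 2409 TPM in S16 replicates 1, 2, 3 and 4. Thus S20 replicate 3 lay above S16 replicate 1, and the stages overlapped. In S12 it had 755, 155, 212 and 1702 TPM in replicates 1, 2, 4 and 5. Its last step was -3.21, and it was -4.08 with S20 replicate 3 left out and -2.30 with S20 replicate 1 left out.

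Grouping the members by how they deviated from their stage means (average linkage, 1 minus correlation of at most 0.4) put this ID in the largest group, of 15 members. The deviations took no part in the rule. The median pairwise correlation in the group was 0.71, which describes the grouping itself. Its mean log2(TPM + 1) was 2.08, 3.98, 5.16 and 3.44 in S20 replicates 1, 2, 3 and 5, against 5.55, 6.49, 5.95 and 7.43 in S16 replicates 1, 2, 3 and 4. Every one of the 15 was lowest at S20 in replicate 1, 14 were highest there in replicate 3, and 12 were highest at S16 in replicate 4. Over all 200 members, S20 replicate 1 was the lowest for 143 and S20 replicate 3 the highest for 100. Within S12 the group mean ran over 2.28 log2 units and within S8 over 0.30, while the mean of the other 185 members ran over 0.31 and 0.51. The grouping used these same deviations, so the shared order and the range of the group mean describe the grouping too. For 8 of the 15 the S20 and S16 libraries did not overlap, and for 4 the S20 libraries lay below all 24 others. Over all 200 members these counts were 138 and 99, and over all IDs tested the shares were 7.63% and 2.34%. The rule chose on these means, so such counts describe the list.

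**Figure D3:**
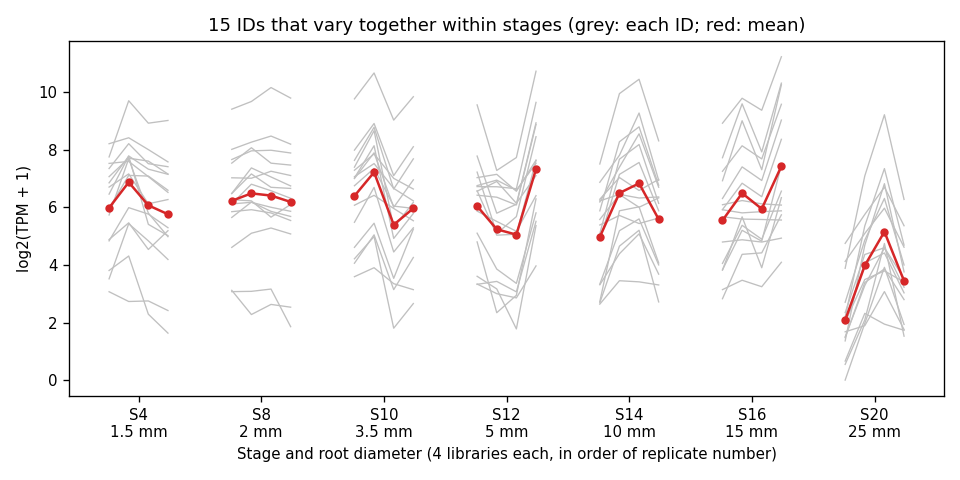
Level, as log2(TPM + 1), of the 15 IDs that vary together within stages (grey lines) and their mean (red) in the 4 libraries of each stage, in order of replicate number. The red mean spans 5.05 to 7.33 within S12 alone and 2.08 to 5.16 within S20.

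Of these 15 members, 11 had G numbers within a stretch of 260, between 16558 and 16817, and came from 8 G numbers. The stretch was chosen after the values were seen. It held 290 rows that were tested, 12 of them members. Of the 278 rows there that were no members, 11 were called lower and 10 higher at S20 than at S16 (limma), against 2.76% and 3.17% of all IDs tested, with a median log2 fold of -0.02. Among the non-members, 10 had deviations that correlated with the group mean at 0.6 or more (3.60%), against 1.12% of all tested IDs that were no members.

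Over all 200 members the deviations were mostly weakly correlated. The median correlation of deviations between members was 0.13 over 19900 pairs, and 0.452% of the pairs reached 0.8. The members with a mean of 10 to 100 TPM had a median of 0.14, with 0.569% of pairs at 0.8 or more, and all 16610 tested IDs in that range had 0.08 and 0.707%. All points share libraries, and rows of near-identical copies can share reads.

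Other rows of the same G numbers were called lower at S20 more often than higher. The G members were 146 rows from 133 G numbers, of which 68 had a single row in the file and 65 had more. The other rows of these G numbers that passed the filter and were no members numbered 84. Of these, 22 were called lower and 0 higher at S20 than at S16 (limma). Among all tested G rows that share a G number, 2.79% were called lower and 3.46% higher. A fit to S16 and S20 alone called 13 lower and 0 higher, and no background share was computed for it. At an unadjusted p under 0.05 in the fit to all libraries, 1 of the 84 was higher. Their median log2 fold was -0.80, with 67 negative and 15 positive. These rows were close to the rule, since a row that fell more could have been a member, and they may share reads with the member.

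TPM was also summed over all rows of each G number, so that the members were set beside the rows with which they share it. Of the 65 sums over more than 1 row, 45 were called lower at S20 than at S16 (limma), and 62 had a negative fold. Over all sums tested, 3.03% were called lower. The median log2 fold of the 65 sums was -1.92, and that of their members -2.09. The members held a median of 62.9% of the sum at S20 and 66.0% at S16. In 12 of the 65 the members made up the whole sum at both stages, so the rule fixes the fall of these sums, and 11 of the 12 were called. Where the members held under 50% of the sum at S16, 11 of 25 sums were called lower, with a median log2 fold of -1.14 and a range from -2.57 to 1.23. As the members are part of the sums, these counts are a description.

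**Figure D4:**
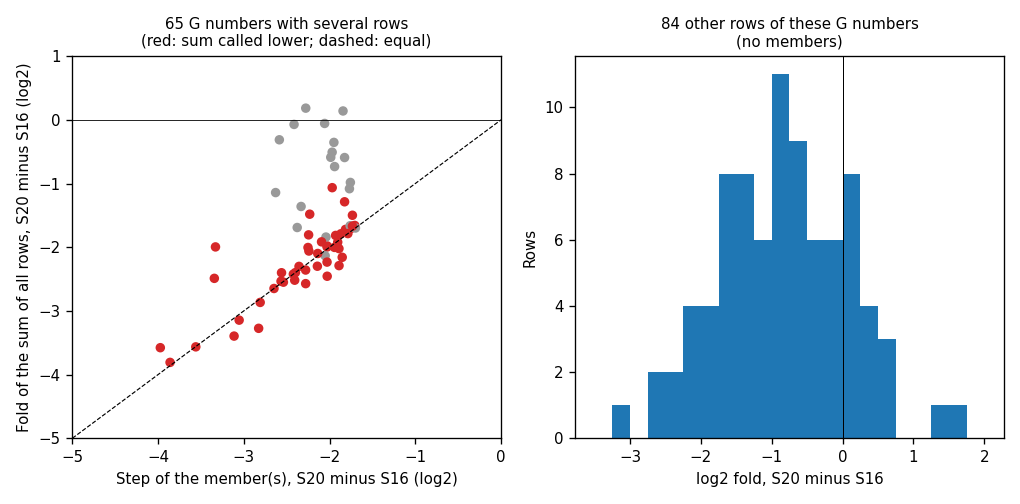
Left, log2 fold of S20 against S16 for the sum of all rows of each of 65 G numbers with several rows (vertical) against the median step of its members (horizontal). Red points are sums called lower, and most lie close to the dashed line of equality. The sum with the highest fold, 1.23, lies above the end of the axis and is not drawn. Right, log2 fold of S20 against S16 for the 84 other rows of these G numbers, most of which lie below 0.

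The largest falls, in contrast, included IDs whose lower level came with a higher level of the next ID in the numbering. MSTRG.59695, with the most negative step of all, had 0, 25.6, 0 and 0 TPM in S20 replicates 1, 2, 3 and 5, against 79.4, 22.5, 101 and 107 TPM in S16 replicates 1, 2, 3 and 4. MSTRG.59696, the next ID, which was chosen after its values were seen, had 85.0, 166, 250.4 and 163 TPM in the same S20 libraries, against 128, 88.2, 39.3 and 0 TPM in the S16 libraries. The sum of both IDs was 172 ± 68.7 TPM at S20 and 141 ± 46.5 TPM at S16 (SD, n = 4 each), so the mean of the sum was not lower at S20, although replicate 1 was. MSTRG.59696 was not called higher at S20 (log2 fold 2.58, SE 1.33, limma adjusted p = 0.246). Already at S14, replicate 4 had 0 TPM of MSTRG.59695 and 156 TPM of MSTRG.59696. In S16 replicates 1, 2 and 3, however, both IDs were above 0 TPM. No source used here says whether adjacent numbers belong to the same locus, and a link between the changes of both IDs was not tested.

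For the member with the fifth largest fall, the opposite changes of the member and its next ID were sharper. It had 0, 250.1, 0 and 105 TPM in S20 replicates 1, 2, 3 and 5, against 231, 229, 227 and 221 TPM in the S16 libraries. The next ID in the numbering had 216, 0, 237 and 139 TPM in those S20 libraries, against 0, 0, 0 and 2.79 TPM in the S16 libraries. Their sum was 237 ± 15.1 TPM at S20 and 228 ± 3.22 TPM at S16 (SD, n = 4 each). The sums ran from 216 to 250.1 TPM at S20 and from 223 to 231 TPM at S16.

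The member with the second largest fall had a sum with its next ID of 70.9 to 78.4 TPM in the S20 libraries and 58.7 to 66.5 TPM in the S16 libraries. For the ninth, that sum was 44.2 ± 16.9 TPM at S20 and 52.3 ± 7.86 TPM at S16 (SD, n = 4 each). Of the 10 largest falls, 6 were of MSTRG IDs, not all of which had a next ID. In 4 of the 10 the rise of the next ID made up at least 50% of the fall in mean TPM. Few members further down reached this threshold. The list held 54 IDs of the MSTRG kind among its 200, against 24.6% of all IDs tested, and 33 of them had a next ID in the file. The same threshold was reached by 5 of these, and for the previous ID this held in 4 of 31. Among all tested MSTRG IDs called lower at S20, members included, it held for 16 of 241 with a next ID and 13 of 222 with a previous ID. Among those with any lower mean TPM at S20, where a small difference is easily offset, it held for 22.9% and 22.2%. In the list of IDs higher only at S20, the opposite change of the neighbour reached the same threshold for 0 of 12 next and 2 of 25 previous IDs. The limma fit called 2 of the 24 next IDs that were tested higher and 3 lower at S20, members included. Among all MSTRG rows tested it called 1.9% higher and 2.24% lower. Higher calls numbered 0 in a fit to S16 and S20 alone and 1 without S16 replicate 2, with no background share computed for either.

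**Figure D5:**
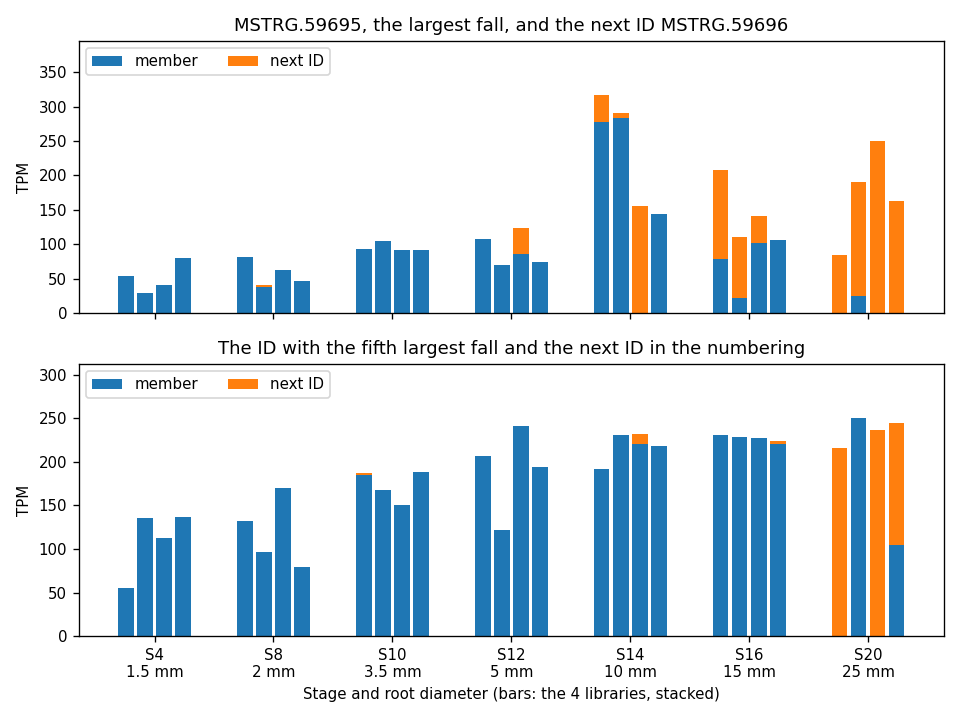
TPM of a member (blue) and of the next ID in the numbering (orange), stacked, in the 4 libraries of each stage. In the upper pair, MSTRG.59695 and MSTRG.59696, and in the lower pair, the ID with the fifth largest fall and its next ID, the blue part is missing from 3 and 2 of the 4 S20 bars, while the mean of the full bars is not lower at S20 than at S16.

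The neighbouring lists differed in level. The 200 IDs found by the mirrored rule, higher only at S20, had a median of 2.94 TPM over all libraries, and 156 of them were listed at 0 in at least 1 library. The 200 IDs that fell at the S12 to S14 step by the same rule had a median of 4.32 TPM, and 123 had such a 0. Among the members these values were 28.5 TPM and 53 IDs. Among the members, 49 of 133 G numbers (36.8%) had another member within 50 numbers, against 73 of 149 in the mirrored list and 28.8% in the S12 to S14 list. The rules fix part of these differences, and none was tested.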

How the data were processed

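Per the file headers and column totals, the deposited table holds gene-level TPM values by the authors, with 99697 rows and 28 columns, 1 per library. Per the submitters' processing notes, TopHat2 2.0.0 and RSEM 1.3.1 were used. The role of each tool, the build and the gene models are not given in the sources used here. TPM keeps no depth, so no counting interval was computed and error was judged from replicate spread alone. Values were analysed as log2(TPM + 1). limma 3.58.1 (R 4.3.3) modelled the 7 stages jointly, with a trended prior, and p-values were adjusted by Benjamini-Hochberg over all 75757 IDs tested. Sums by G number were fitted in the same way. Python 3.11.15, NumPy 2.4.6, SciPy 1.17.1, pandas 2.3.3 and Matplotlib 3.10.9 were used. The fit and the rule were run on simulated data with independent normal values, with falls placed in IDs of higher level and low spread. Members with low levels or zeros, or that vary together, are not covered by that check. The members, groups and neighbour sums were chosen with earlier results of these data known. Named IDs were the member with the most negative last step and the member with the highest S16 mean; a rule for 2 rising rows of the same G numbers found 0. Replicate numbers are those of the sample descriptions. Same-numbered S16 and S20 libraries did not deviate together, so no block was used. The alternatives were other pseudocounts, filters, scalings, fits and rule settings, and the removal of each library.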

Additional observations from a re-analysis of the deposited data

Results flagged for a closer look

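In each stage of 4 libraries, the library farthest from its neighbour was compared with the range of the stage. This was done for 6 measures (42 groups in all), and 5 groups stood apart. Chance flags about 1 in 20 groups of continuous values. That rate does not hold for values at 0, as a stage with a single library above 0 is always flagged. The members' summed TPM was 15912 in 1 S8 library (replicate 2), below the other S8 libraries. MSTRG.59695 stood apart with 105 TPM in 1 S10 library and with 25.6 TPM in the only S20 library where it was above 0. MSTRG.59696 stood apart with 3.22 TPM in the only S8 library and 37.4 TPM in the only S12 library where it was above 0.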

How the results depend on the processing

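Which IDs make up the list depended on the pseudocount and the step share. Of the 200 members, 80 were chosen again with a pseudocount of 0.1, 111 with 5, 84 with a step share of 40% and 63 with 60%, against 197 with a filter of 5 TPM, 198 with no filter, 141 with median-of-ratios scaling, 167 with quantile normalization and 138 to 193 when 1 library was left out. The median step was -2.76 with a pseudocount of 0.1 and -1.49 with 5. The members called lower (171) numbered 104 in a fit to S16 and S20 alone and 129 to 174 without 1 library. Of the 171, 156 lay outside the group of 15 that vary together, and all 15 of that group were called. That split involved no new fit. The fit to S16 and S20 alone called 13 other rows of the G numbers lower and 0 next MSTRG numbers higher. Leaving out 1 library gave 16 to 23 and 1 to 3. The count of other rows called higher was 1 with array weights and 1 with the replicate block, and 0 to 1 without 1 library. The log2 fold of MSTRG.59695 was -7.38 with a pseudocount of 0.1. The causes of these changes were not tested. A change of direction could be read only for the median step and the log2 folds of the named members, and none was seen. These IDs were chosen for a large fall, so this outcome was close to fixed. Same-numbered S16 and S20 libraries correlated between -0.08 and -0.04 over 3 pairs, so the numbers were not taken to pair the samples; with the replicate block 153 members were called lower. S20 and S16 did not overlap for 139 members without S20 replicate 1. The share of all IDs tested was not computed for the alternative runs, so their counts stand without a background. Depth is unknown, so values near 0 could not be limited.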
